A study of Mus musculus with 18 samples.

Results

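The step from transitional to follicular B cell was examined in wild-type mice by RNA sequencing of freshly isolated cells that were neither cultured nor treated. Members were the 3 libraries of transitional cells and the 3 libraries of follicular cells that the labels give as WT, 6 of the 18 libraries in the series, numbered as replicates 1 to 3 in each group. The labels do not say whether transitional and follicular libraries of the same number came from 1 mouse, so the 6 libraries may come from as few as 3 mice. The mice had the C57BL/6 background, and WT animals were littermates of mice lacking Sh3gl1, the gene of the endocytic adaptor endophilin A2, in every cell (Sh3gl1-/-). The other groups of 3 libraries each were transitional and follicular cells of Sh3gl1-/- mice and follicular cells of both genotypes cultured with CD40L. The study's gates took transitional cells as B220+CD93+ and follicular cells as mature B220+CD93- cells separated by CD23 and CD21/35. The stages within the transitional gate are distinguished by CD23 and IgM, and the labels do not say which of them the libraries hold. Levels of Cd93, Fcer2a (CD23), Cr2 (CD21/35), Ighm and Ptprc (B220) are therefore given as a description without a test. Age and sex are not in the labels, and neither is the organ, although the gates are described for spleen.

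Transitional B cells are the newly made cells that leave the bone marrow and reach the spleen. Many of them are lost there, through selection against self-reactive receptors and competition for the survival factor BAFF, and the cells that pass enter either the follicular or the marginal zone pool. Follicular cells are resting cells that recirculate through lymphoid follicles, carry IgD besides IgM and present antigen to helper T cells.

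Total counts per library were 14552376, 13322913 and 12404693 in transitional cells and 14737232, 15501892 and 12894124 in follicular cells, numbered as replicates 1, 2 and 3. At these depths 3 counts correspond to between 0.191 and 0.244 CPM, counts divided by a library size scaled with the TMM method and given in units of 1000000. This floor reflects counting error alone, as reads amplified by PCR were not tied to single molecules by identifiers. The first principal component held 51.1% of the variance and separated the groups, and the second held 18.5% and separated replicate 3 of each group from replicates 1 and 2. Replicate 3 of each group had Xist at 441 CPM (transitional) and 465 CPM (follicular) and no count of the Y-linked gene Ddx3y, whereas replicates 1 and 2 had Ddx3y between 252 and 309 CPM. Each group thus held 1 library of the first kind and 2 of the second. In bulk RNA, fewer cells of a type and less RNA per cell cannot be told apart.

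The gated markers followed the labels. Cd93, the complement receptor-like protein that defines the transitional gate, had 67.0, 73.9 and 59.2 CPM in the transitional and 12.1, 14.8 and 12.8 CPM in the follicular libraries. All transitional libraries lay above all follicular ones, by 5.04-fold in the fitted means. Fcer2a, the low-affinity IgE receptor, had 1038, 1144 and 927 CPM in the transitional and 1351, 1712 and 1595 CPM in the follicular libraries, and its groups did not overlap either. Cr2, the receptor for complement fragments bound to antigen, had 556, 554 and 532 CPM in the transitional and 782, 817 and 988 CPM in the follicular libraries. Ighm, the constant region of IgM, stood higher in transitional cells, with 11382, 12987 and 12337 CPM in the transitional and 5556, 5803 and 5607 CPM in the follicular libraries. Ptprc, the phosphatase whose B220 form both gates require, had 3649, 3169 and 3313 CPM in the transitional and 2708, 2973 and 3104 CPM in the follicular libraries.

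Of 13641 genes tested, 3136 (23%) differed between the groups, called where the Benjamini-Hochberg adjusted p of the quasi-likelihood test in edgeR was below 0.05. 1293 of them (9.48%) were higher and 1843 (13.5%) were lower in follicular cells, and these shares are the background for the counts of gene groups below. Fold changes are given as log2 of follicular over transitional, and the median of all genes tested was 0.02. Large changes were mostly decreases, since 274 called genes were at least 2-fold higher and 662 at least 2-fold lower, and 4 and 139 passed 8-fold. Leaving out 1 library at a time lowered the count of calls, to 1796 without follicular replicate 1 and 1991 without transitional replicate 2, and no call changed direction.

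**Figure D1:**
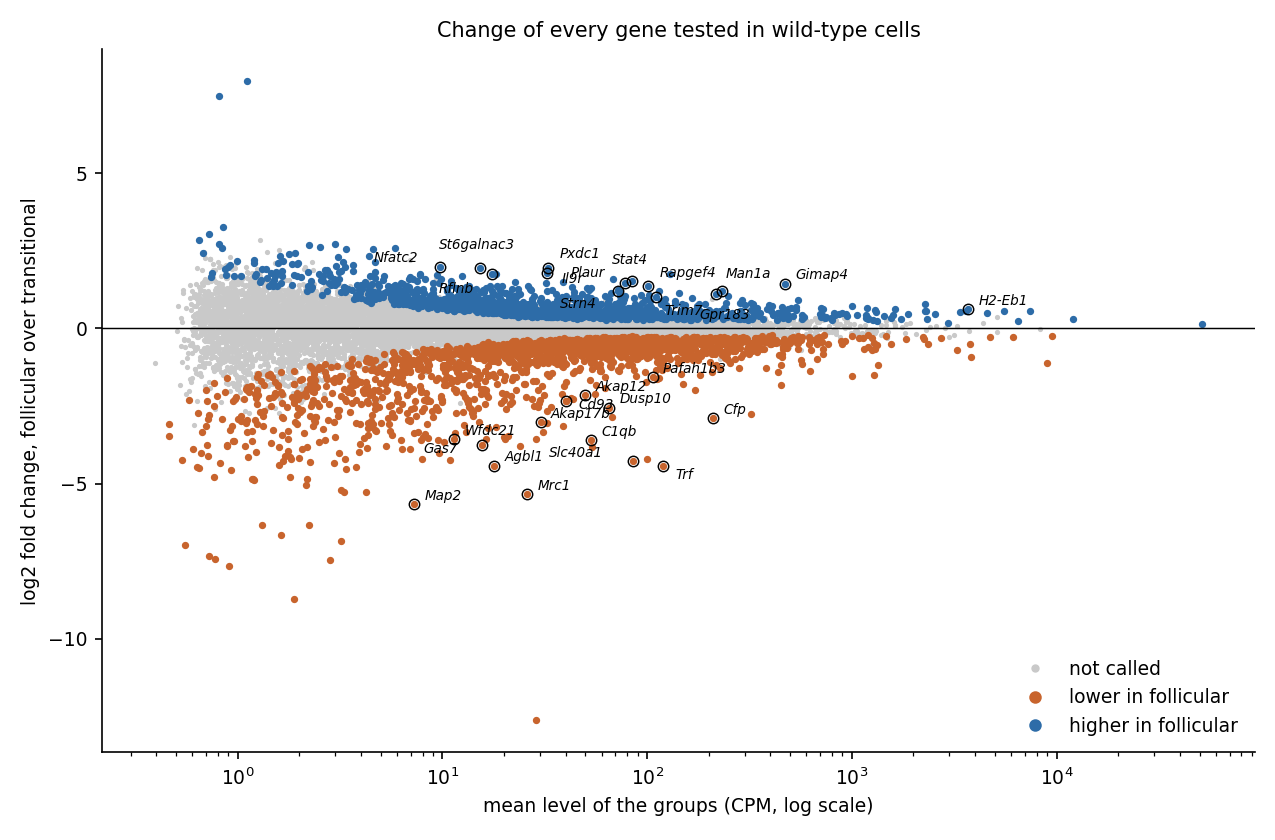
Each point is 1 of the 13641 genes tested, with the mean level of the groups on a log axis (CPM) and the log2 fold change of follicular over transitional WT cells, coloured by call at an adjusted p under 0.05. Circles mark the genes named by significance or by size and the gated Cd93, which reach 1.99 above 0 and 5.66 below it.

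Genes higher in follicular cells with the lowest adjusted p came from several functions and differed by less than 4-fold. Gimap4, a GTPase of the immunity-associated protein family (chr6:48684549-48692060, plus strand, GRCm38), had 264, 261 and 241 CPM in the transitional and 692, 684 and 702 CPM in the follicular libraries. The follicular values lay close together and all exceeded the transitional ones (log2 fold change 1.44, SE 0.08, adjusted p = 9.26e-06). Stat4, which transmits interleukin-12 signals, had 44.3, 48.3 and 38.5 CPM in the transitional and 119, 138 and 121 CPM in the follicular libraries (log2 fold change 1.52, SE 0.11, adjusted p = 3.67e-05). Gpr183, the oxysterol receptor that directs B cells to the outer follicle, had 138, 136 and 138 CPM in the transitional and 282, 299 and 314 CPM in the follicular libraries (log2 fold change 1.12, SE 0.08, adjusted p = 4.88e-05), and again no follicular library reached down to a transitional one. Rapgef4, a cAMP-activated exchange factor for the GTPase RAP1, had 57.6, 57.4 and 53.6 CPM in the transitional and 126, 139.9 and 169 CPM in the follicular libraries (log2 fold change 1.37, SE 0.12, adjusted p = 8.71e-05). The other genes of this rank were Man1a, a Golgi mannosidase (1.21), Strn4, a scaffold of protein phosphatase 2A (1.19), Plaur, the urokinase receptor (1.46), Pxdc1 (1.93), the MHC class II chain H2-Eb1 (0.63) and the ubiquitin ligase Trim7 (1.02).

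By size, among called protein-coding genes with at least 10 CPM in the higher group and no overlap between groups, the leading genes were Nfatc2, a calcium-regulated transcription factor, and St6galnac3, a sialyltransferase. Nfatc2 had 1.62, 5.72 and 4.47 CPM in the transitional and 13.2, 17.2 and 16.3 CPM in the follicular libraries (log2 fold change 1.99, SE 0.37, adjusted p = 0.00470), and every transitional value stayed below every follicular value. St6galnac3 had 5.64, 5.57 and 7.72 CPM in the transitional and 24.8, 22.5 and 25.9 CPM in the follicular libraries (log2 fold change 1.95, SE 0.18, adjusted p = 0.00012). Pxdc1 came next, followed by Il9r, the receptor for interleukin-9 (1.78), and Rflnb, a filamin-binding protein (1.75).

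Genes lower in follicular cells with the lowest adjusted p had larger changes. Cfp, encoding the complement regulator properdin (chrX:20925454-20931555, minus strand), had 369, 384 and 351 CPM in the transitional and 48.0, 55.3 and 47.0 CPM in the follicular libraries. Every transitional value lay far above every follicular value (log2 fold change -2.88, SE 0.10, adjusted p = 1.36e-06). Gas7, a membrane- and actin-binding protein, had 29.5, 28.4 and 29.1 CPM in the transitional and 2.12, 2.10 and 2.25 CPM in the follicular libraries (log2 fold change -3.75, SE 0.17, adjusted p = 3.88e-06). Dusp10, a phosphatase of stress-activated MAP kinases, had 102, 106 and 126 CPM in the transitional and 17.0, 22.2 and 17.6 CPM in the follicular libraries (log2 fold change -2.55, SE 0.14, adjusted p = 9.26e-06). Akap12, which anchors protein kinase A, had 89.8, 77.0 and 78.1 CPM in the transitional and 18.9, 18.7 and 16.9 CPM in the follicular libraries (log2 fold change -2.16, SE 0.11, adjusted p = 9.26e-06). These 4 genes had no overlap between groups. Agbl1, a carboxypeptidase that acts on glutamate side chains (-4.42), Wfdc21 (-3.58), Pafah1b3, a subunit of platelet-activating factor acetylhydrolase (-1.58), Akap17b (-3.02) and the complement component C1qb (-3.60) were also of this rank. Under the same limits on level and overlap, the largest decreases by size were Map2, a microtubule-associated protein with 13.4, 13.5 and 16.0 CPM in the transitional and 0.132, 0.446 and 0.232 CPM in the follicular libraries (log2 fold change -5.66, SE 0.36, adjusted p = 1.97e-05), and Mrc1, the macrophage mannose receptor with 55.0, 60.2 and 36.6 CPM in the transitional and 0.199, 1.85 and 1.70 CPM in the follicular libraries (log2 fold change -5.34, SE 0.43, adjusted p = 6.27e-05). Trf, encoding transferrin (-4.44), Agbl1 and Slc40a1, the iron exporter ferroportin (-4.28), followed. The follicular values of Map2 stand for 2, 7 and 3 counts, so few that the size of its fold is uncertain.

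Several of these decreases were macrophage genes, and the whole monocyte and macrophage marker list moved with the groups. All 11 listed markers were detected and called lower in follicular cells (median -3.13), beside a background of 13.5%. Their summed level was 997, 1258 and 850.3 CPM in transitional and 146, 166 and 184 CPM in follicular libraries. Lyz2, encoding lysozyme and the most abundant of them, had 231, 267 and 306 CPM in the transitional and 83.7, 86.7 and 114 CPM in the follicular libraries. Vcam1, the adhesion molecule of splenic macrophages, had 178, 251 and 142 CPM in the transitional and 6.88, 13.4 and 10.8 CPM in the follicular libraries (log2 fold change -4.20, SE 0.27, adjusted p = 2.08e-05). Csf1r, the receptor for macrophage colony-stimulating factor, had 53.1, 74.0 and 47.5 CPM in the transitional and 8.27, 6.94 and 5.65 CPM in the follicular libraries (log2 fold change -3.06, SE 0.20, adjusted p = 2.11e-05). None of the 11 was at 0 in all libraries, and C1qc lost its call in 4 of the 6 fits that left out a library (0.0872 without follicular replicate 2, 0.0747 without follicular replicate 3, 0.0875 without transitional replicate 1 and 0.0507 without transitional replicate 2; log2 fold change -2.83). Both gates of the study select B220+ cells. The part of macrophage RNA in the decreases of Mrc1, Trf, Slc40a1, C1qb, Cd14 and other genes that macrophages express was not tested. Erythroid markers summed to 3124, 4079 and 2355 CPM in transitional and 3951, 3689 and 1476 CPM in follicular libraries, and none was called. T cell markers summed to 69.5, 97.7 and 121 CPM and to 121, 149.7 and 155 CPM, with 2 of 10 called higher, Cd28 (0.89) and Cd3g (0.68). That count was 0 without follicular replicate 2, follicular replicate 3, transitional replicate 1 or transitional replicate 2, where the adjusted p of Cd28 lay between 0.0639 and 0.0818 and that of Cd3g between 0.0997 and 0.160. It was 4 without transitional replicate 3, and 6 both with the replicate number as a block and when all genes with a count were tested. No natural killer, neutrophil or platelet marker was called, but 2 natural killer and 2 neutrophil markers were higher and 1 neutrophil marker lower with the replicate block, and 2, 3 and 1 when all genes with a count were tested. Natural killer markers summed to 32.8, 32.9 and 68.3 CPM in transitional and 55.5, 44.3 and 106 CPM in follicular libraries, and neutrophil markers to 104, 57.9 and 72.4 CPM and 186, 80.8 and 71.5 CPM. Of the dendritic cell markers only Bst2, itself induced by interferon, was lower, a call held in the fit without transitional replicate 1 and lost without any other library (adjusted p between 0.0551 and 0.147).

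Most markers of immature cells were lower in follicular cells, and markers of the follicular pool were divided. Without the gated Cd93, 5 of the 6 transitional markers tested were lower in follicular cells (median -0.98) and none was higher. Myb, a transcription factor of progenitor cells, had 32.0, 34.1 and 40.3 CPM in the transitional and 8.21, 7.96 and 7.28 CPM in the follicular libraries (log2 fold change -2.18, SE 0.15, adjusted p = 2.14e-05). Vpreb3, an immunoglobulin-associated protein of early B cells, had 514, 526 and 578 CPM in the transitional and 254, 219.7 and 194 CPM in the follicular libraries (log2 fold change -1.28, SE 0.11, adjusted p = 8.19e-05), and Cd24a, a surface glycoprotein high on immature cells, had 319, 407 and 401 CPM in the transitional and 203, 214 and 178 CPM in the follicular libraries (log2 fold change -0.92, SE 0.12, adjusted p = 0.000605). The groups did not overlap for any of these. Arid3a (-1.03) and Lef1 (-0.57), both transcription factors of early lymphocytes, were also lower, and Sox4 was not called (-0.78, adjusted p = 0.229). The recombinase genes Rag1 and Rag2 were below the filter on low counts. Rag1 had 1.69, 3.89 and 0.650 CPM in transitional libraries, and both genes had no count in any follicular library.

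**Figure D2:**
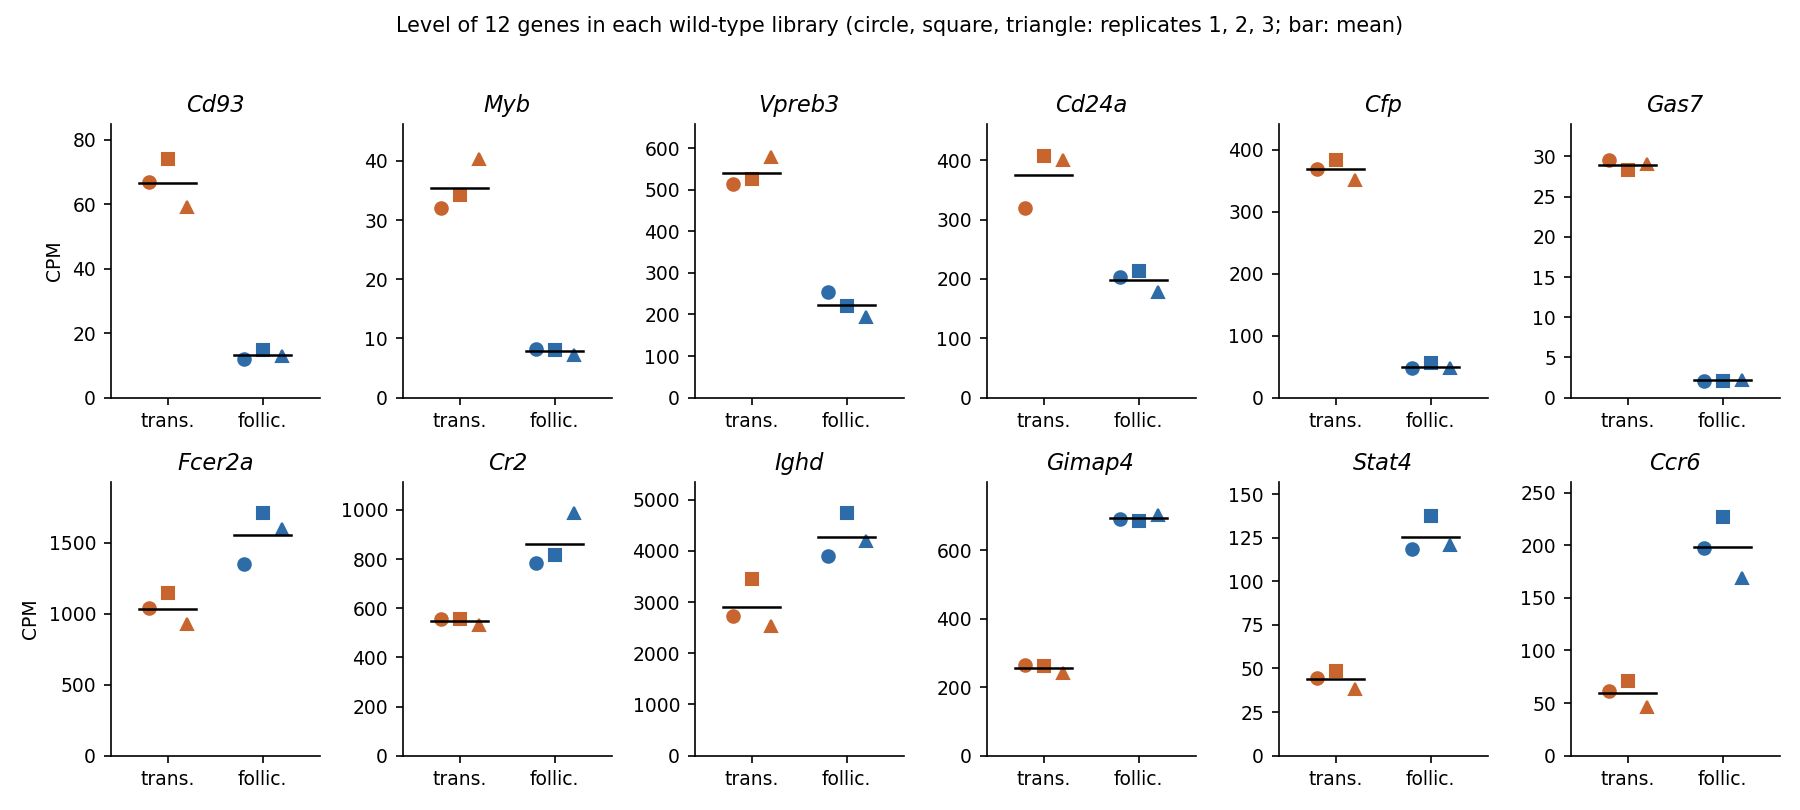
CPM (linear axes from 0) of 12 genes in the 3 transitional and 3 follicular WT libraries, with replicates 1, 2 and 3 as circle, square and triangle and the group mean as a bar. In each of the 12 panels the groups do not overlap, and for Cfp the transitional libraries sit between 351 and 384 CPM and the follicular ones between 47.0 and 55.3 CPM.

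Without Fcer2a and Cr2, which belong to the gate, 4 of 8 follicular markers were higher and 2 lower (median 0.15). Icosl, the ligand of the T cell costimulator ICOS, had 203, 189.7 and 138 CPM in the transitional and 301, 335 and 293 CPM in the follicular libraries (log2 fold change 0.81, SE 0.14, adjusted p = 0.00328). Ighd, the constant region of IgD, had 2738, 3450 and 2532 CPM in the transitional and 3906, 4742 and 4197 CPM in the follicular libraries (log2 fold change 0.56, SE 0.11, adjusted p = 0.00714), with no overlap although transitional replicate 2 stood above the others of its group. Cd55, a complement-protecting protein, was higher (log2 fold change 0.47, SE 0.11, adjusted p = 0.0119) and not called without follicular replicate 2 (adjusted p = 0.0507). Against their list's name, Tnfrsf13c, the BAFF receptor, was lower in follicular cells with 1001, 907 and 876 CPM in the transitional and 519, 575 and 469 CPM in the follicular libraries (log2 fold change -0.83, SE 0.09, adjusted p = 0.000312). Ccr7, the chemokine receptor for the T cell zone, was slightly lower (log2 fold change -0.24, SE 0.08, adjusted p = 0.0450), a call that was lost in each fit that left out a library, with an adjusted p between 0.0634 and 0.128, and also when all genes with a count were tested (0.102), so that 1 marker was called lower in each of the former. Cd22 (-0.27, adjusted p = 0.0723) and Cd38 (-0.18, adjusted p = 0.168) were not called.

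Markers of other B cell subsets were lower in follicular cells where they were called. Of 9 marginal zone markers, 6 were lower and none higher. S1pr3, a sphingosine-1-phosphate receptor, had 45.3, 49.2 and 32.5 CPM in the transitional and 13.9, 13.4 and 12.2 CPM in the follicular libraries (log2 fold change -1.68, SE 0.17, adjusted p = 0.000159). Cd1d1, which presents lipids to natural killer T cells, had 254, 222 and 234 CPM in the transitional and 93.1, 117 and 141 CPM in the follicular libraries (log2 fold change -1.02, SE 0.14, adjusted p = 0.00106). Cd36, a scavenger receptor that macrophages also express (-1.35), Myof (-1.67), Plac8 (-0.84) and Mzb1 (-0.44) were lower as well. The call of Mzb1 was lost without follicular replicates 1 and 2 and transitional replicate 2 (adjusted p = 0.0602 without follicular replicate 1, 0.0571 without follicular replicate 2 and 0.0515 without transitional replicate 2). Of 7 B-1 cell markers, 3 were lower, led by the transcriptional repressor Bhlhe41 with 119.9, 81.5 and 70.4 CPM in the transitional and 19.2, 21.6 and 21.4 CPM in the follicular libraries (log2 fold change -2.13, SE 0.19, adjusted p = 9.25e-05).

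Among 7 germinal centre and plasma cell markers tested, 2 were lower in follicular cells and none was higher. Jchain, which joins IgM pentamers, had 669, 599 and 418 CPM in the transitional and 99.5, 103 and 45.9 CPM in the follicular libraries (log2 fold change -2.76, SE 0.29, adjusted p = 0.000221). Prdm1, the regulator of plasma cell fate, stayed at or below 1.14 CPM in every library, and Irf4 (-0.21, adjusted p = 0.215) and Xbp1 (0.32, adjusted p = 0.177) were not called. Part of the B cell identity set was also lower. Ms4a1, encoding CD20, had 4431, 5029 and 5529 CPM in the transitional and 2495, 2671 and 2791 CPM in the follicular libraries (log2 fold change -0.91, SE 0.08, adjusted p = 0.000108). The receptor signalling chain Cd79b was lower (log2 fold change -0.52, SE 0.05, adjusted p = 0.000168), as was Cd79a (log2 fold change -0.29, SE 0.07, adjusted p = 0.0178), the latter with an adjusted p of 0.0531 without follicular replicate 1, 0.0503 without follicular replicate 2, 0.0729 without follicular replicate 3, 0.0553 without transitional replicate 2 and 0.0659 without transitional replicate 3. Without the gated Ptprc, 3 of 7 pan-B markers were called lower, or 6 without transitional replicate 1. Pax5, the factor that maintains B cell identity, was not called (-0.19, adjusted p = 0.146).

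Most genes of mitosis were lower in follicular cells. Of 30 mitosis genes, 27 were lower (median -2.31, beside 13.5% of all genes tested) and none was higher. Their summed level was 597, 862 and 835 CPM in transitional and 175, 184 and 190.4 CPM in follicular libraries, with transitional replicate 1 below the other two of its group and still above every follicular library. Between 26 and 28 were called lower when a library was left out. Top2a, the topoisomerase that untangles replicated chromosomes, had 86.3, 138 and 129 CPM in the transitional and 15.4, 18.5 and 15.0 CPM in the follicular libraries (log2 fold change -2.85, SE 0.18, adjusted p = 1.97e-05). Mki67, the chromosome-coating protein used as a proliferation marker, had 35.7, 73.9 and 63.5 CPM in the transitional and 9.46, 11.7 and 8.36 CPM in the follicular libraries (log2 fold change -2.54, SE 0.26, adjusted p = 0.000185). Kif11, the motor that separates spindle poles, had 25.2, 38.4 and 34.8 CPM in the transitional and 3.90, 3.38 and 3.56 CPM in the follicular libraries (log2 fold change -3.18, SE 0.20, adjusted p = 1.97e-05). Cdk1, the kinase that drives entry into mitosis, had 14.7, 17.5 and 17.7 CPM in the transitional and 3.38, 3.18 and 3.02 CPM in the follicular libraries (log2 fold change -2.38, SE 0.20, adjusted p = 7.4e-05). The groups did not overlap for these 4 genes, and the follicular levels of Kif11 and Cdk1 stayed above 3 CPM.

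Among the regulators of mitosis, the spindle kinases Plk1 (-2.67) and Aurkb (-1.53), the checkpoint kinase Bub1 (-3.18), the kinetochore protein Cenpf (-3.34), the cyclin Ccnb2 (-2.34) and the ubiquitin-conjugating enzyme Ube2c (-2.84) were lower. The smallest called change was that of Tacc3 (log2 fold change -0.97, SE 0.11, adjusted p = 0.000362). Ccna2, encoding cyclin A2, was called lower (log2 fold change -1.16, SE 0.32, adjusted p = 0.0283) but had an adjusted p of 0.0673 without follicular replicate 1, 0.0518 without follicular replicate 2, 0.0792 without follicular replicate 3, 0.0910 without transitional replicate 2 and 0.0760 without transitional replicate 3. Ttk (-1.65, adjusted p = 0.0925), Cdc20 (-0.86, adjusted p = 0.154) and Cenpa (-0.33, adjusted p = 0.399) were not called.

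Promoters of mitosis genes are shown because the members moved together and are known to share short elements, the CCAAT box bound by NF-Y and the cell-cycle homology region TTTGAA. Sequences are the 250 bases before the start site from RefSeq (GRCm38.p6), which held 26 of the 30 genes, without Ccna2, Aurkb, Kif20a and Tpx2. On either strand, CCAAT was found in 22 of 26 (84.6%) beside 33.9% of 32851 promoters of all genes, and TTTGAA in 9 of 26 (34.6%) beside 16.0%. The E2F runs TTTGGCGC and TTTCCCGC were found in none of the 26, beside 1.3% of all promoters with either. Top2a, Kif11, Cdk1 and Nusap1 are shown, the called members with the lowest adjusted p among those matched. They are written 5′ to 3′ on the gene's strand, and capitals mark the CCAAT and TTTGAA runs on either strand, so that a run on the opposite strand appears as its reverse complement. Top2a (chr11:99024190-99024439, minus strand), Kif11 (chr19:37376132-37376381, plus strand), Cdk1 (chr10:69352913-69353162, minus strand) and Nusap1 (chr2:119618048-119618297, plus strand) read as follows.
Top2a: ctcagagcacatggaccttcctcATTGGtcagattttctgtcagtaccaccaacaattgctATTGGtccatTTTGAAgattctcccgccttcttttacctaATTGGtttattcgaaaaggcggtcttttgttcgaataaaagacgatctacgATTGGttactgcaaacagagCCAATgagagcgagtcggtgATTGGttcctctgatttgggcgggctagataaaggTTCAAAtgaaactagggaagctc
Kif11: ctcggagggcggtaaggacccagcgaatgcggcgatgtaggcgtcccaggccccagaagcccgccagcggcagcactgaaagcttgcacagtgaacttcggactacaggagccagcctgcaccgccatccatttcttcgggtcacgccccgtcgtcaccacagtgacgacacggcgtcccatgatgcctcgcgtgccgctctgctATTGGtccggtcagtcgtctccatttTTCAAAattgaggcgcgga
Cdk1: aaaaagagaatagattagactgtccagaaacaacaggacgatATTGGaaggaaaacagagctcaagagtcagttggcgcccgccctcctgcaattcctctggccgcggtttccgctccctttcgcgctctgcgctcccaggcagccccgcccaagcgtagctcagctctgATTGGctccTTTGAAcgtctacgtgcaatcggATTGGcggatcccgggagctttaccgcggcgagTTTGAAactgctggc
Nusap1: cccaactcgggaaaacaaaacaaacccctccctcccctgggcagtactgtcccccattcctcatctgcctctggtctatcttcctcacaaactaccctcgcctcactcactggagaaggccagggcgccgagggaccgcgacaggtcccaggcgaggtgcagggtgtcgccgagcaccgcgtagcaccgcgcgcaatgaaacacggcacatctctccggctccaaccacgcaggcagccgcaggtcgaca
Top2a carried 6 CCAAT runs and 2 TTTGAA runs, the nearest ending 17 bases before the start site. Kif11 carried 1 of each, 40 and 13 bases before it, and Cdk1 carried 3 CCAAT and 2 TTTGAA runs. Nusap1 had neither run in this window and was lower to a similar degree (log2 fold change -2.28, SE 0.21, adjusted p = 0.000102).

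DNA replication genes were lower to a smaller degree. 19 of 31 were called lower (61.3%, median -0.67) and 1 higher. Rrm2, the regulated subunit of the enzyme that makes deoxyribonucleotides, had 63.5, 73.3 and 79.8 CPM in the transitional and 15.3, 17.1 and 12.1 CPM in the follicular libraries (log2 fold change -2.28, SE 0.15, adjusted p = 2.09e-05). Mcm10, a factor that activates the replicative helicase, was lower too (log2 fold change -3.21, SE 0.46, adjusted p = 0.00116). Of the helicase subunits, Mcm3 (-1.07), Mcm7 (-1.01), Mcm5 (-0.88) and Mcm2 (-0.70) were lower, whereas Mcm6 was not called (0.24, adjusted p = 0.376). Tyms, which makes thymidylate (-1.26), Lig1, the ligase of lagging-strand fragments (-0.97), and the polymerase subunit Pola1 (-0.96) were lower. Pcna, the sliding clamp, was not called (-0.22, adjusted p = 0.122). The member called higher was the licensing factor Cdt1 (log2 fold change 0.56, SE 0.16, adjusted p = 0.0349), and that call had an adjusted p of 0.127 without follicular replicate 1, 0.0639 without follicular replicate 2, 0.0665 without transitional replicate 1, 0.0973 without transitional replicate 2 and 0.0642 without transitional replicate 3.

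Of 24 cyclins, cyclin-dependent kinases, inhibitors and E2F factors, 7 were lower (29.2%, beside 13.5% of all genes tested) and none higher. Ccnd2, the cyclin D that B cells induce on activation, had 336, 431 and 429 CPM in the transitional and 141, 185 and 165 CPM in the follicular libraries (log2 fold change -1.29, SE 0.13, adjusted p = 0.000192). E2f2 had 94.5, 109 and 107 CPM in the transitional and 36.9, 51.8 and 34.3 CPM in the follicular libraries (log2 fold change -1.33, SE 0.15, adjusted p = 0.000333). E2f8, a repressor expressed in dividing cells, had 3.73, 2.90 and 5.85 CPM in the transitional and 0, 0 and 0.387 CPM in the follicular libraries (log2 fold change -5.04, SE 0.88, adjusted p = 0.00357), so that its fold rests on few counts. Cdkn1b, encoding the cell-cycle inhibitor p27, had 69.3, 60.5 and 65.9 CPM in the transitional and 81.3, 75.5 and 70.4 CPM in the follicular libraries and was not called (0.22, adjusted p = 0.141). Ccnd3, the other cyclin D of lymphocytes, was not called either (-0.10, adjusted p = 0.518).

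**Figure D3:**
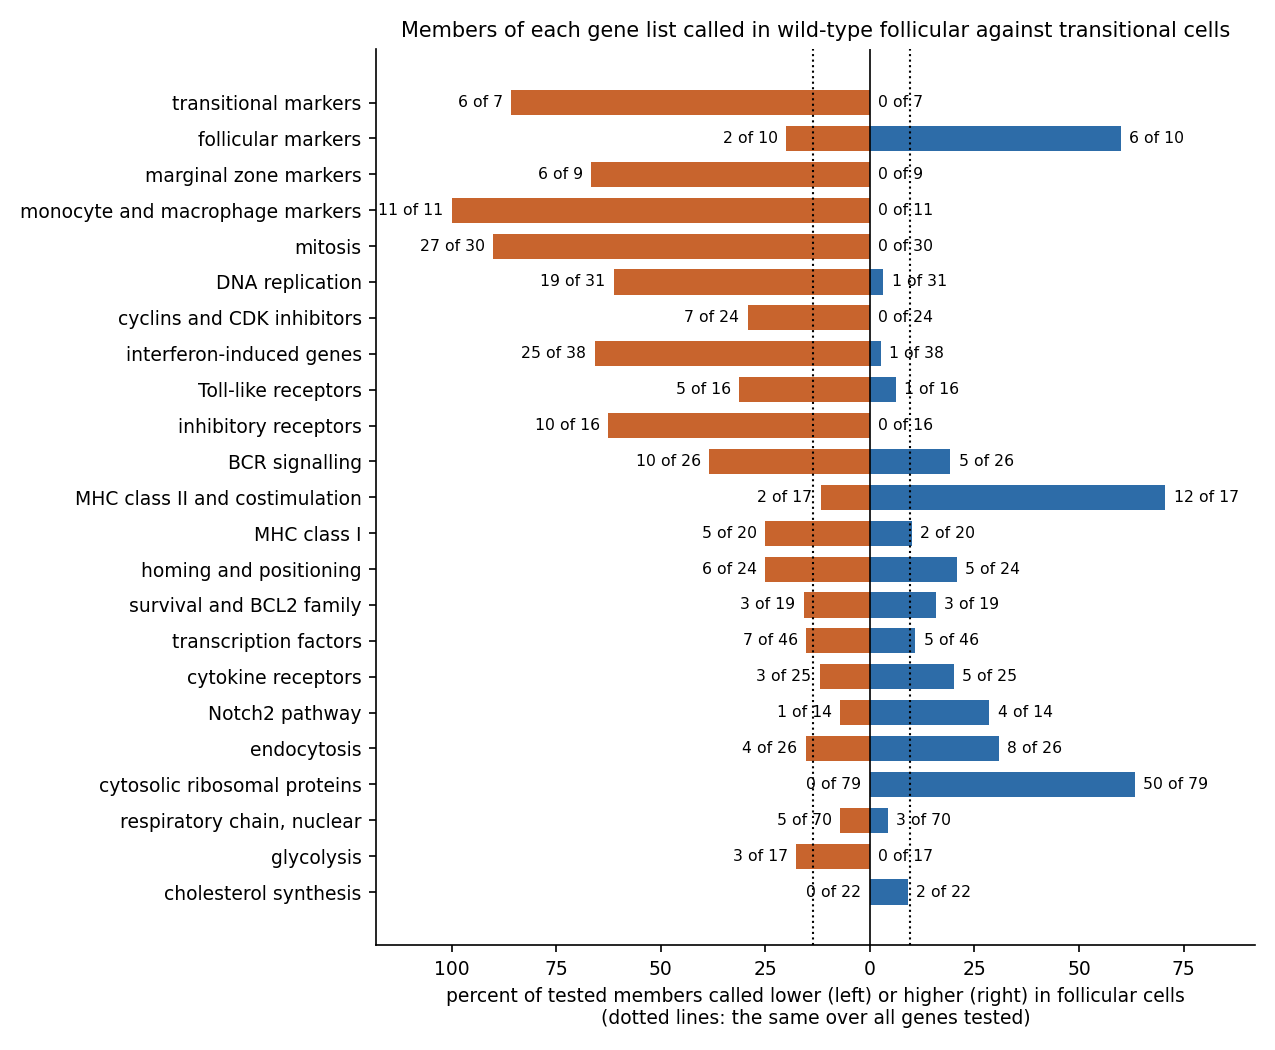
Percent of tested members of 23 gene lists called lower (left) or higher (right) in follicular against transitional WT cells, with counts at the bars and dotted lines at the shares of all genes tested, 13.5% lower and 9.48% higher. The bars include the gated genes Cd93, Fcer2a and Cr2. Monocyte and macrophage markers and mitosis genes reach furthest to the left, and MHC class II and ribosomal protein genes furthest to the right.

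Genes of antigen presentation by MHC class II were higher in follicular cells. 12 of 17 genes of the class II and costimulation list were called higher (70.6%, median 0.30) and 2 lower. Ciita, the transactivator of the class II genes, had 223, 239 and 236 CPM in the transitional and 402, 419 and 411 CPM in the follicular libraries (log2 fold change 0.82, SE 0.08, adjusted p = 0.000142). H2-Eb1, a beta chain, had 2759, 2990 and 2949 CPM in the transitional and 4366, 4539 and 4566 CPM in the follicular libraries (log2 fold change 0.63, SE 0.06, adjusted p = 9.38e-05), and H2-Aa, an alpha chain, had 4446, 4689 and 4213 CPM in the transitional and 6007, 6849 and 6880 CPM in the follicular libraries (log2 fold change 0.56, SE 0.07, adjusted p = 0.000465). Each was higher in all follicular than in all transitional libraries. The peptide-exchange chaperones H2-DMa (0.44) and H2-DMb1 (0.64) and their inhibitor H2-Oa (0.71) were higher too. Per length, Cd74, the invariant chain, was the most abundant, at 51628 ± 1754 TPM in transitional and 55010 ± 1074 TPM in follicular cells (SD, n = 3), and its small change (log2 fold change 0.13, SE 0.04, adjusted p = 0.0348) was not called with the replicate block (adjusted p = 0.120), by DESeq2 (0.293) or in 4 fits without a library (0.0855 without follicular replicate 2, 0.186 without follicular replicate 3, 0.0756 without transitional replicate 2 and 0.143 without transitional replicate 3). Ifi30, a lysosomal thiol reductase that acts in antigen processing and is induced by interferon, was lower with 169, 197 and 234 CPM in the transitional and 107, 103 and 95.4 CPM in the follicular libraries (log2 fold change -0.97, SE 0.12, adjusted p = 0.000665). The costimulatory ligand Cd86 was lower (log2 fold change -0.48, SE 0.14, adjusted p = 0.0395) and had an adjusted p of 0.141 without follicular replicate 1, 0.133 without follicular replicate 2, 0.0849 without transitional replicate 1, 0.0674 without transitional replicate 2 and 0.0876 without transitional replicate 3. Cd40, the receptor for T cell help, was not called (-0.08, adjusted p = 0.542). The count higher was 7 without follicular replicate 2, 7 without transitional replicate 2 and 7 without transitional replicate 3. The count lower was 1 in each fit without a library except that without follicular replicate 3.

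MHC class I genes showed no such shift, with 2 higher and 5 lower of 20 (median -0.08), beside backgrounds of 9.48% and 13.5%. B2m, the light chain, had 2456, 2912 and 3136 CPM in the transitional and 2961, 2846 and 2796 CPM in the follicular libraries and was not called (0.02, adjusted p = 0.905). The peptide-loading protein Tapbp (log2 fold change -0.36, SE 0.08, adjusted p = 0.00928) and its relative Tapbpl (log2 fold change -0.54, SE 0.09, adjusted p = 0.00329) were lower. The higher count was 0 without follicular replicate 1, 1 without follicular replicate 2, 1 without follicular replicate 3 and 0 without transitional replicate 2, and the lower count was 3 without follicular replicate 1 and 3 without follicular replicate 3.

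Interferon-induced genes were lower in follicular cells, with 25 of 38 called (65.8%, median -0.85) and 1 higher. Mx1, an antiviral GTPase, had 19.1, 23.2 and 35.6 CPM in the transitional and 8.27, 7.77 and 12.4 CPM in the follicular libraries (log2 fold change -1.46, SE 0.26, adjusted p = 0.00405). Oas1a, which activates RNA decay, had 35.7, 25.8 and 48.4 CPM in the transitional and 11.9, 13.1 and 19.4 CPM in the follicular libraries (log2 fold change -1.31, SE 0.25, adjusted p = 0.00526). The guanylate-binding protein Gbp9 had 378, 287 and 331 CPM in the transitional and 135, 168 and 189 CPM in the follicular libraries (log2 fold change -1.02, SE 0.14, adjusted p = 0.000998). Replicate 3 was the highest library of its group for Mx1 and Oas1a in both cell states. For the summed list it was also highest, at 4347, 3999 and 5332 CPM in transitional and 2849, 2997 and 3699 CPM in follicular libraries. Ly6a, encoding Sca-1, went the other way with 188, 179 and 245 CPM in the transitional and 369.9, 307 and 412 CPM in the follicular libraries (log2 fold change 0.83, SE 0.14, adjusted p = 0.00331). The count lower was 12 without follicular replicate 1, 12 without follicular replicate 2 and 13 without transitional replicate 3. Monocytes and macrophages also express many of these genes, and the part of their RNA in this decrease was not tested.

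**Figure D4:**
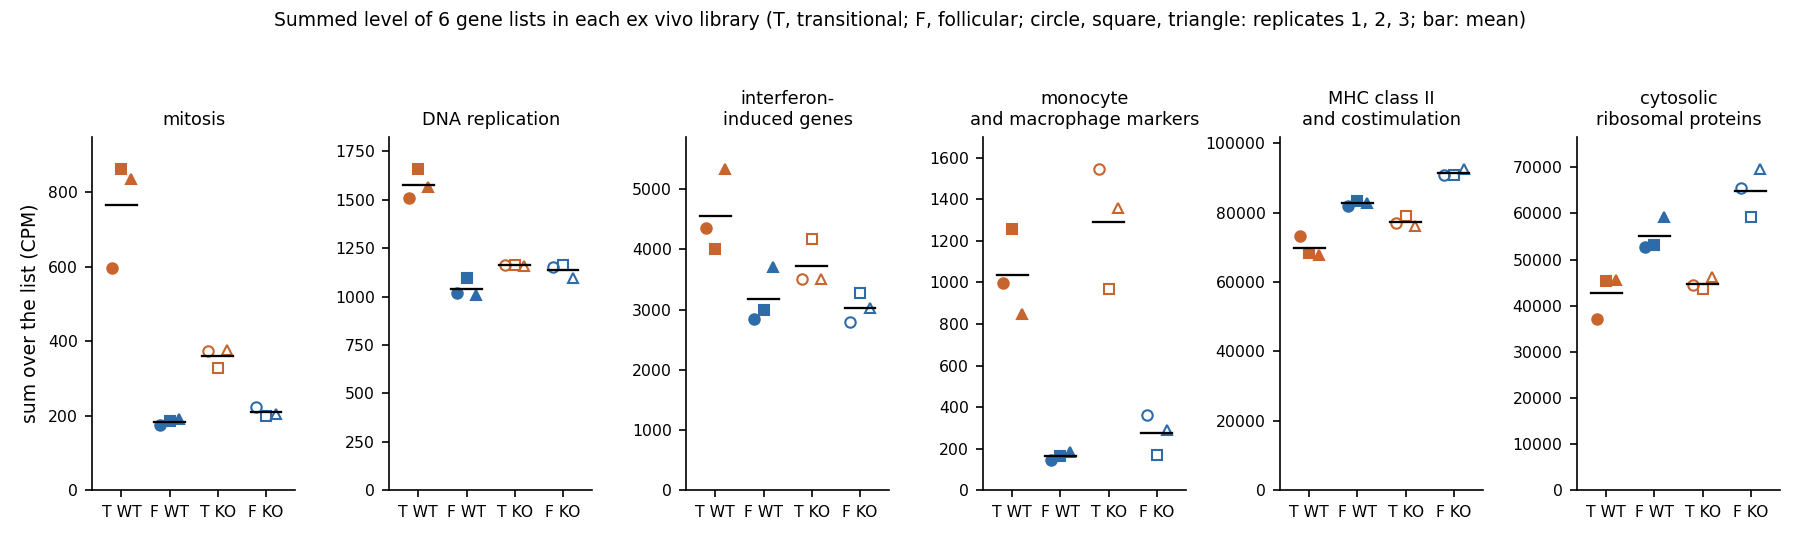
Summed CPM over the genes of 6 lists in each of the 12 ex vivo libraries (linear axes from 0; filled, WT; open, Sh3gl1-/-; circle, square and triangle, replicates 1, 2 and 3; bar, mean). In WT cells the mitosis sum lies between 597 and 862 CPM in transitional and between 175 and 190.4 CPM in follicular libraries, and the ribosomal protein sum is higher in every follicular than in every transitional library. Library sizes were scaled within each genotype.

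Components of B cell receptor signalling changed in both directions. The receptor cascade passes from the CD79 chains through the kinases LYN, SYK and BTK to calcium, NF-kB and phosphoinositide signals. Without the gated Cr2, 4 of 25 genes were higher and 10 lower (median -0.23). Syk had 478, 517 and 497 CPM in the transitional and 358, 362 and 350.4 CPM in the follicular libraries (log2 fold change -0.48, SE 0.08, adjusted p = 0.00205) and Lyn 420.2, 366 and 421 CPM in the transitional and 309, 317 and 286 CPM in the follicular libraries (log2 fold change -0.41, SE 0.09, adjusted p = 0.0114). Vav1, an exchange factor downstream of SYK, was lower (log2 fold change -0.69, SE 0.10, adjusted p = 0.00132). The kinase Fyn was higher with 16.5, 13.9 and 16.2 CPM in the transitional and 28.3, 23.4 and 23.8 CPM in the follicular libraries (log2 fold change 0.69, SE 0.14, adjusted p = 0.00816). Btk was not called (-0.14, adjusted p = 0.405), and neither was Plcg2, the phospholipase it activates (-0.10, adjusted p = 0.454). These counts depended on single libraries. The higher count was 1 without follicular replicate 1, 2 without follicular replicate 2, 1 without transitional replicate 2 and 2 without transitional replicate 3, and the lower count was 4 without follicular replicate 1, 5 without follicular replicate 2, 6 without follicular replicate 3, 6 without transitional replicate 2 and 6 without transitional replicate 3.

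Inhibitory receptors and their phosphatases moved one way where called, with 10 of 16 lower (62.5%, median -0.50). Cd72, a receptor that dampens antigen signals through the phosphatase SHP-1, had 1461, 1388 and 1395 CPM in the transitional and 868, 928 and 861 CPM in the follicular libraries (log2 fold change -0.68, SE 0.07, adjusted p = 0.000159). Siglecg, a sialic acid receptor that limits calcium signalling, had 1476, 1636 and 1656 CPM in the transitional and 946, 986 and 1093 CPM in the follicular libraries (log2 fold change -0.66, SE 0.08, adjusted p = 0.000465). Ptpn6, which encodes SHP-1, had 1595, 1606 and 1541 CPM in the transitional and 1016, 1199 and 1048 CPM in the follicular libraries (log2 fold change -0.54, SE 0.08, adjusted p = 0.00114). The groups did not overlap for these 3 genes. Pirb (-1.29), Lair1 (-1.84) and Cd300a (-2.31), which myeloid cells also express, had the larger changes. Fcgr2b, the inhibitory Fc receptor, was not called (-0.13, adjusted p = 0.518), nor was Btla (0.15, adjusted p = 0.252).

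Survival genes were divided. Of 19 tested, 3 were higher and 3 lower (15.8% each), near the 9.48% and 13.5% of all genes tested. The lower count was 5 by DESeq2, with all ex vivo groups in 1 fit and with all genes that had a count. The protective genes Bcl2, with 123, 119 and 122 CPM in the transitional and 203, 176 and 180.5 CPM in the follicular libraries (log2 fold change 0.62, SE 0.09, adjusted p = 0.00144), and Bcl2a1b, with 48.8, 61.8 and 43.7 CPM in the transitional and 92.6, 81.9 and 88.5 CPM in the follicular libraries (log2 fold change 0.77, SE 0.13, adjusted p = 0.00302), were higher, as was Bcl2a1d (0.76), although the last pair are near-identical copies whose reads may be divided uncertainly. Bad, a promoter of cell death, was lower with 33.8, 37.0 and 31.1 CPM in the transitional and 14.8, 19.4 and 19.0 CPM in the follicular libraries (log2 fold change -0.94, SE 0.14, adjusted p = 0.00160), and so were the BAFF receptor described above and Tnfrsf13b, encoding TACI (log2 fold change -0.48, SE 0.14, adjusted p = 0.0347; 0.0909 without follicular replicate 2, 0.108 without follicular replicate 3, 0.0976 without transitional replicate 1 and 0.0837 without transitional replicate 3). Mcl1 (-0.22, adjusted p = 0.104) and Bcl2l11, encoding BIM (0.00, adjusted p = 0.999), were not called.

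Homing and positioning receptors were also divided, 5 higher and 6 lower of 24 (20.8% and 25%, beside 9.48% and 13.5% of all genes tested). Ccr6, a chemokine receptor of mature B cells, had 61.2, 70.8 and 46.2 CPM in the transitional and 198, 227 and 169 CPM in the follicular libraries (log2 fold change 1.74, SE 0.16, adjusted p = 0.000138). Itgb7, the integrin chain for gut homing, had 20.9, 18.2 and 22.2 CPM in the transitional and 53.9, 50.4 and 40.2 CPM in the follicular libraries (log2 fold change 1.24, SE 0.14, adjusted p = 0.000339), and Gpr174, a lysophosphatidylserine receptor, had 110.0, 115 and 107 CPM in the transitional and 192, 227 and 237 CPM in the follicular libraries (log2 fold change 0.98, SE 0.10, adjusted p = 0.000219). Gpr183, described above, was also among the members called higher. Besides S1pr3, the integrin chain Itgb2 (log2 fold change -0.70, SE 0.12, adjusted p = 0.00298) and the hyaluronan receptor Cd44 (log2 fold change -0.59, SE 0.12, adjusted p = 0.00884) were lower. Cxcr5, the receptor for the follicle chemokine CXCL13, had 312, 316 and 343 CPM in the transitional and 333, 362 and 418 CPM in the follicular libraries and was not called (0.20, adjusted p = 0.187). S1pr1, which allows exit from lymphoid organs, was not called (-0.33, adjusted p = 0.0747), nor was Cxcr4 (0.42, adjusted p = 0.594). The lower count was 3 without transitional replicate 2.

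Of 46 transcription factors of B cells, 5 were higher and 7 lower, shares near the background of 9.48% and 13.5%. The lower ones were Myb, Bhlhe41, Arid3a and Lef1, described above, with Zeb2 (-1.41), Spib (-1.17) and Id2 (-0.65). Spib, an ETS factor of B cells, had 521, 699 and 664 CPM in the transitional and 278, 318 and 241 CPM in the follicular libraries (log2 fold change -1.17, SE 0.13, adjusted p = 0.000333). Bcl6, the repressor needed for germinal centres, was higher with 56.9, 71.7 and 79.2 CPM in the transitional and 108, 104 and 127 CPM in the follicular libraries (log2 fold change 0.71, SE 0.13, adjusted p = 0.00529). Klf6 (0.53), Hhex (0.51), Klf3 (0.42) and Runx3 (0.56) were higher, the last with an adjusted p of 0.0674 without follicular replicate 1 and 0.0559 without follicular replicate 3. Klf2, a regulator of quiescence and homing, had 41.7, 46.0 and 47.5 CPM in the transitional and 60.6, 54.1 and 42.5 CPM in the follicular libraries and was not called (0.22, adjusted p = 0.278). Foxo1 (0.08, adjusted p = 0.609) and Ebf1 (0.06, adjusted p = 0.693) were not called. With the replicate block, 10 factors were called higher.

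Signals received from neighbouring cells showed single changes. Of 25 cytokine receptor genes, 5 were higher and 3 lower (20% and 12%, beside 9.48% and 13.5% of all genes tested). Il9r had 15.3, 17.5 and 11.1 CPM in the transitional and 52.8, 52.3 and 45.8 CPM in the follicular libraries (log2 fold change 1.78, SE 0.16, adjusted p = 0.000113) and Il6ra had 4.30, 4.27 and 7.15 CPM in the transitional and 13.4, 15.2 and 9.44 CPM in the follicular libraries (log2 fold change 1.28, SE 0.28, adjusted p = 0.00998). Il2ra, encoding CD25, was lower with 24.3, 25.3 and 32.6 CPM in the transitional and 3.71, 5.73 and 5.73 CPM in the follicular libraries (log2 fold change -2.44, SE 0.21, adjusted p = 9.26e-05). The higher count was 2 without follicular replicate 2, and the lower count was 1 without follicular replicate 1 and 1 without transitional replicate 2. In the Notch2 pathway, which directs the marginal zone fate, 4 of 14 genes were higher (28.57%, beside 9.48% of all genes tested). Notch2 was among them with 184, 151 and 148 CPM in the transitional and 261, 228 and 238 CPM in the follicular libraries (log2 fold change 0.59, SE 0.11, adjusted p = 0.00455). Lfng, which glycosylates Notch receptors, had 3.03, 5.11 and 3.50 CPM in the transitional and 12.9, 9.11 and 11.3 CPM in the follicular libraries (log2 fold change 1.52, SE 0.27, adjusted p = 0.00366). Dtx1, a target of this pathway in B cells, was not called (0.19, adjusted p = 0.377), and Hes1, another target, was lower (log2 fold change -0.74, SE 0.22, adjusted p = 0.0369) with an adjusted p of 0.106 without follicular replicate 1, 0.0676 without follicular replicate 2, 0.0850 without follicular replicate 3, 0.0864 without transitional replicate 1 and 0.108 without transitional replicate 3. Among 16 Toll-like receptors and their partners, 5 were lower and 1 higher (31.25% and 6.25%, beside 13.5% and 9.48% of all genes tested). The lower count was 3 without follicular replicate 1, 3 without follicular replicate 2 and 3 without transitional replicate 1. The member called higher was Irak3, an inhibitor of this signalling (log2 fold change 0.62, SE 0.17, adjusted p = 0.0290), and its call held without transitional replicate 1 and was lost without any other library (adjusted p between 0.0533 and 0.0827). Cd14, which macrophages express, had the largest change (log2 fold change -3.89, SE 0.59, adjusted p = 0.00160), and Unc93b1, which carries nucleic acid sensors to endosomes, had 760.5, 729.7 and 699 CPM in the transitional and 562, 549 and 556 CPM in the follicular libraries (log2 fold change -0.39, SE 0.07, adjusted p = 0.00416).

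Ribosomal protein genes were higher in follicular cells by a small and shared amount. 50 of 79 were called higher (63.3%, median 0.40) and none lower. Their summed level was 37177, 45258 and 45591 CPM in transitional and 52722, 53260 and 59129 CPM in follicular libraries, without overlap. The count was 27 without follicular replicate 1, 30 without follicular replicate 2, 21 without follicular replicate 3, 33 without transitional replicate 1 and 31 without transitional replicate 2. Reads of these genes may be shared with processed pseudogenes, so that single members are uncertain. The nuclear respiratory chain genes had 3 higher and 5 lower of 70, below the background in both directions, and counts without 1 library were 1 without follicular replicate 2, 1 without follicular replicate 3 and 0 without transitional replicate 2 (higher) and 1 without follicular replicate 1, 1 without follicular replicate 2, 3 without follicular replicate 3, 2 without transitional replicate 1 and 1 without transitional replicate 2 (lower). Of 17 glycolysis genes, 3 were lower (17.65%, beside 13.5% of all genes tested) and none higher. The count lower was 1 without follicular replicate 1, 1 without follicular replicate 2, 1 without transitional replicate 2 and 1 without transitional replicate 3. It was 5 by DESeq2 and 6 with all ex vivo groups in 1 fit. Pkm, the pyruvate kinase, was lower with 493, 512 and 496 CPM in the transitional and 319.6, 399.9 and 398 CPM in the follicular libraries (log2 fold change -0.43, SE 0.10, adjusted p = 0.0138). Of 22 cholesterol genes, 2 were higher (9.09%, near the 9.48% of all genes tested). They were Srebf2, the regulator of sterol synthesis (log2 fold change 0.80, SE 0.15, adjusted p = 0.00476), and Abca1, a cholesterol exporter (log2 fold change 1.05, SE 0.13, adjusted p = 0.000461). With the replicate block 4 were called, and also without transitional replicate 2.

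Among 26 endocytosis genes, 8 were higher and 4 lower (30.8% and 15.4%, beside 9.48% and 13.5% of all genes tested). These counts changed when single libraries were left out. The higher count was 1 without follicular replicate 1, 3 without follicular replicate 2, 3 without follicular replicate 3, 2 without transitional replicate 2 and 4 without transitional replicate 3, and the lower count was 2 without follicular replicate 1. Tfrc, the transferrin receptor for iron uptake, had 68.6, 79.6 and 78.3 CPM in the transitional and 37.3, 39.6 and 46.0 CPM in the follicular libraries (log2 fold change -0.88, SE 0.11, adjusted p = 0.000675), and the clathrin heavy chain gene Cltc had 351, 323 and 308 CPM in the transitional and 209.8, 239 and 249.6 CPM in the follicular libraries (log2 fold change -0.49, SE 0.10, adjusted p = 0.00636). Both were lower in every follicular library. The clathrin light chain genes went the other way and were higher in follicular cells, Clta (log2 fold change 0.75, SE 0.17, adjusted p = 0.0117) as well as Cltb (log2 fold change 1.76, SE 0.39, adjusted p = 0.0107). Their calls were lost without follicular replicate 1 (adjusted p = 0.0520 and 0.0562), and Cltb was low in both groups, with means of 1.14 and 3.86 CPM. Hip1, a clathrin-binding adaptor, was also higher (log2 fold change 0.77, SE 0.19, adjusted p = 0.0165), with an adjusted p of 0.0582 without transitional replicate 2. Sh3gl1 itself had 41.6, 35.6 and 30.6 CPM in the transitional and 35.0, 36.2 and 34.6 CPM in the follicular libraries and was not called (-0.03, adjusted p = 0.890). Of 20 immediate early genes tested, which handling of cells can also induce, 3 were higher and 3 lower. These shares, 15% each, stood beside 9.48% and 13.5% of all genes tested. Ier5 (log2 fold change 1.22, SE 0.18, adjusted p = 0.00157) and Ier2 (log2 fold change 1.26, SE 0.26, adjusted p = 0.00753) were higher, as was Cd69, which retains lymphocytes in tissue (log2 fold change 0.75, SE 0.11, adjusted p = 0.00116), whereas Egr2, a target of antigen receptor signals, was lower (log2 fold change -0.94, SE 0.16, adjusted p = 0.00275).

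Immunoglobulin genes held 4.06%, 4.27% and 4.02% of counts in transitional and 3.02%, 3.08% and 2.94% in follicular libraries, T cell receptor genes included. Without the gated Ighm, 3 of 10 constant region genes were lower and 1 higher, or 5 lower with the replicate block. Among those called, Iglc1 had the largest change, with 2146, 1995 and 1525 CPM in the transitional and 703, 750.5 and 570.1 CPM in the follicular libraries (log2 fold change -1.49, SE 0.14, adjusted p = 0.000117). Iglc2 (-0.34) and Igkc (-0.26) were lower, the latter not in the fit of all ex vivo groups (adjusted p = 0.266), and Iglc3 was not called (0.10, adjusted p = 0.308), although the lambda constant regions resemble each other enough to share reads. Heavy-chain variable segments held 0.154%, 0.196% and 0.170% of counts in transitional and 0.0866%, 0.103% and 0.0904% in follicular libraries, and 49 of 98 tested were lower and none higher (median -0.89). Of 109 kappa variable segments, 37 were lower and 2 higher (median -0.39), and all 3 lambda variable segments were lower (median -1.39). Short reads divide similar segments uncertainly. Germinal centre and plasma cell markers, of which 2 of 7 were lower, Jchain among them, moved with these genes. They summed to 796.3, 729.9 and 555.7 CPM in transitional and 191.3, 217.7 and 135.5 CPM in follicular libraries. The part of such cells' RNA in the immunoglobulin decreases was not tested.

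The same comparison in Sh3gl1-/- mice shares no library with the one above. Sh3gl1 was between 0.262 and 0.812 CPM in transitional and between 0.0734 and 0.194 CPM in follicular libraries of these mice, beside 30.6 to 41.6 CPM in WT. Of 13870 genes tested, 1578 (11.4%) were called, 585 higher (4.22%) and 993 lower (7.16%). This count was 1039 without follicular replicate 1 and 991 without follicular replicate 3 of Sh3gl1-/- mice. Of the 3136 WT calls, 3108 were tested in Sh3gl1-/- cells, and 1004 were called there in the same direction, 32.3% of these and 63.6% of the Sh3gl1-/- calls. 2 were called in the opposite direction. The sign was shared by 2829 (91.0%). Of the genes described above, Gimap4 (1.49), Bcl2 (0.54), Cfp (-2.59), Myb (-1.88), Vpreb3 (-1.11) and Ms4a1 (-0.73) were called in the same direction in Sh3gl1-/- cells, log2 fold changes in parentheses. Macrophage markers were called lower in 10 of 11, with sums of 1546, 967 and 1357 CPM in transitional and 363, 168 and 291 CPM in follicular libraries. Ribosomal protein genes were higher in 73 of 79, MHC class II and costimulation genes in 10 of 17, interferon-induced genes lower in 10 of 38 and inhibitory receptor genes lower in 4 of 16 in Sh3gl1-/- cells, set beside 50 of 79, 12 of 17, 25 of 38 and 10 of 16 in WT. The shares of all genes tested also differed, at 4.22% higher and 7.16% lower in Sh3gl1-/- cells and 9.48% and 13.5% in WT.

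The difference between genotypes was tested directly as (follicular minus transitional in Sh3gl1-/-) minus (follicular minus transitional in WT), and 10 of 14580 genes were called (0.0686%). 5 of the 10 were listed cell-cycle genes, Rrm2, Lig1, Mcm5, Top2a and Cdk1, each with a smaller decrease or a positive value in Sh3gl1-/- cells. Top2a changed by -2.85 in WT and -1.13 in Sh3gl1-/- cells (difference 1.71, SE 0.27, adjusted p = 0.0409), and Rrm2 by -2.28 and -0.73 (difference 1.54, SE 0.22, adjusted p = 0.0409). The mitosis sum was 375, 329 and 376 CPM in transitional Sh3gl1-/- libraries. In follicular Sh3gl1-/- libraries its mean was 209 ± 12.1 CPM (SD, n = 3). The transitional values lay below all WT transitional ones and the follicular values somewhat above the WT ones. Library sizes were scaled within each genotype, so a small gap between genotypes is uncertain. 11 of 30 mitosis genes (median -0.76) and 4 of 31 DNA replication genes (median -0.04) were called lower in Sh3gl1-/- cells. Of all genes tested, 7.16% were called lower in Sh3gl1-/- cells and 13.5% in WT. The count of 10 was 0 in 9 of the 12 fits that left out a library, 16 without WT follicular replicate 3, 23 without WT transitional replicate 1 and 20 with the replicate block. It was 352 by DESeq2 and 453 when all genes with a count were tested. On simulated data the test of this difference called 18 of 93 genes with a true log2 difference of 1. It called 88 of 107 with one of 2. The low count in the main fit therefore does not show that the other genes changed alike in both genotypes.

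**Figure D5:**
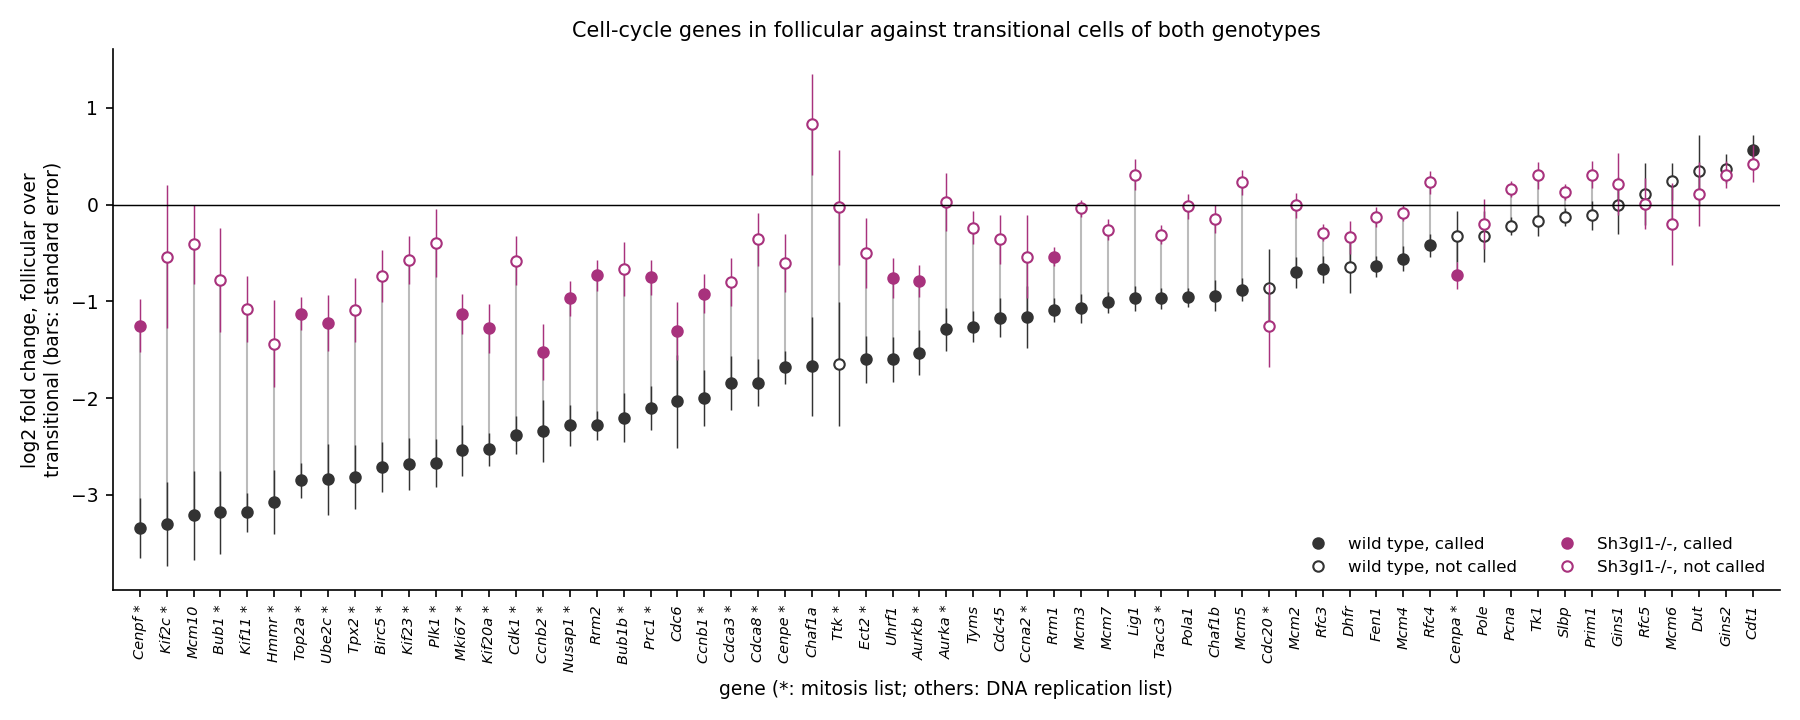
Log2 fold change of follicular over transitional cells (bars, SE) for the DNA replication and mitosis genes in WT and in Sh3gl1-/- mice, joined by a line for each gene and ordered by the WT value, with filled points for genes called within that genotype. Top2a lies at -2.85 in WT and -1.13 in Sh3gl1-/- cells, and Cdt1, at the right, is the gene called higher in WT.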

How the data were processed

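The labels name stranded KAPA mRNA libraries, whereas the methods describe SMART-Seq HT cDNA with Nextera XT and name TopHat and Cufflinks. The submitters' processing notes list cutadapt 1.9.1, STAR 2.5.2a, RSEM 1.3.0 and GRCm38, and the authors deposited expected counts, TPM and FPKM for each gene and library. RSEM divides reads that match several genes, so expected counts are estimates. The roles of the tools beyond this and the annotation release are not given in the sources used here. Names matched columns to libraries, leaving 0 unused for lack of a match. The table has 51912 Ensembl identifiers, of which 51719 were named and placed from GENCODE M21 (GRCm38).

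Expected counts were rounded and tested in R 4.3.3 with edgeR 4.0.16 (TMM, filterByExpr, glmQLFit, glmQLFTest, Benjamini-Hochberg over all genes tested, threshold 0.05). The sources used here name no test of single genes for these data. WT libraries were fitted alone, Sh3gl1-/- libraries alone, and the difference between genotypes on the 12 ex vivo libraries. CPM uses library sizes scaled by TMM within each genotype, TPM served to compare levels between genes, and FPKM was not used. The biological coefficient of variation was 19.0% in the WT fit. Any 2 libraries of a WT group differed by more than sampling noise (chi-square per degree of freedom 10.9 to 19.1), so each counted as 1 sample.

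The labels give replicates 1, 2 and 3 in each group. Deviations from the group means correlated at 0.143, 0.210 and 0.320 between libraries of the same number and at -0.226 to 0.0388 between others. Replicate 3 of both groups also shared high Xist and no Ddx3y count, so these correlations cannot tell whether mice were shared. The main fits took the libraries as unpaired, and the fit with the replicate block was an alternative. It called 3471 genes in WT and made 2996 of the 3136 main calls again in the same direction. On simulated WT data for 13641 genes, edgeR called 68 of 98 genes with a true log2 change of 1, 102 of 102 with one of 2, and 11 genes without a change. In the simulated data all genes shared the same spread, far fewer genes changed and replicates had no structure. These counts are therefore not the error rates of the fits to the real libraries.

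Named genes were, per direction, the 10 with the lowest adjusted p and the 5 with the largest change among called protein-coding genes, immunoglobulin and T cell receptor segments left out, with groups that do not overlap and at least 10 CPM in the higher group, and members of gene lists. Cd93, which this rule takes in, is only described, since the gate used it. The members and lists were chosen with earlier results of these data known. A list is described by its counts beside those of all genes, and a few members counted in the lists are not reported here by name. Other settings were DESeq2 1.42.0, median-ratio size factors (RLE), all genes with a count, all ex vivo groups in 1 fit, immunoglobulin and T cell receptor genes left out, the replicate block and each library left out.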

Additional observations from a re-analysis of the deposited data

Results flagged for a closer look

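The change from transitional to follicular cells differed between genotypes in 10 genes by the test of the difference itself (edgeR quasi-likelihood test, adjusted p between 0.0409 and 0.0446; Sh3gl1-/- minus WT, log2). 7 differences were positive. Those of Rrm2 (1.54), Top2a (1.71), Cdk1 (1.78), Lig1 (1.27), Mcm5 (1.09), Ncapd2, a condensin subunit (1.03), and Ckap5, which promotes microtubule growth (0.80), came from a decrease in WT beside a smaller decrease or a positive value in Sh3gl1-/- cells. 3 were negative, P2rx4, an ATP-gated channel (-0.84), and the noncoding RNAs Gm15675 (-0.75) and Malat1 (-0.41), each higher in follicular WT cells. P2rx4 had 39.5, 42.3 and 44.5 CPM in transitional and 74.8, 67.7 and 68.1 CPM in follicular WT libraries. In Sh3gl1-/- libraries it had 70.2, 69.1 and 81.45 CPM in transitional and 69.1, 66.3 and 72.8 CPM in follicular cells. Ckap5 had 93.8, 106 and 94.7 CPM in transitional and 60.2, 59.3 and 59.5 CPM in follicular WT libraries. Its Sh3gl1-/- values were 69.1, 78.4 and 70.7 CPM in transitional and 74.8, 79.85 and 78.5 CPM in follicular cells. Each gene lost its call in 9 to 11 of the 12 fits that left out a library, while its sign did not change. Without a library, Rrm2 ranged from 1.37 to 1.66, Top2a from 1.57 to 1.89 and Malat1 from -0.44 to -0.36.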

How the results depend on the processing

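The count of WT calls, 3136, was 3397 by DESeq2, 3140 with median-ratio size factors, 3840 with all genes that had a count, 3772 with all ex vivo groups in 1 fit, 3022 without immunoglobulin and T cell receptor genes and 3471 with the replicate block. It ranged from 1796 to 2617 when 1 library was left out, and between 1745 and 2316 of the main calls were made again in these fits in the same direction. Sh3gl1-/- calls, 1578, ranged from 991 to 1482 without 1 library. The 10 genes with a difference between genotypes were 352 by DESeq2, 453 with all genes that had a count, 20 with the replicate block, and between 0 and 23 without 1 library. At an unadjusted p under 0.05 the main fit of this difference held 1992 genes.

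Of 368 genes followed, none changed sign in any fit in which it was tested. Calls were lost for 7 by DESeq2, 7 with median-ratio size factors, 6 with all genes that had a count, 6 in 1 fit of all groups and 5 with the replicate block, for 8 without immunoglobulin and T cell receptor genes, and 497 of 2208 results without 1 library lost the call. The cause of these losses was not tested, apart from the smaller number of samples that leaving a library out entails. Besides the counts given beside their lists, the replicate block moved Notch2 pathway genes called lower and kinesins called higher, each from 1 to 2. It moved no other list's count by over 1.5 times. The Notch2 count was also 2 by DESeq2, with median-ratio size factors, with all genes that had a count and with all ex vivo groups in 1 fit. The kinesin count was also 2 in this last fit. With all genes that had a count, the calls higher were 9 for transcription factors, 5 for immediate early genes, 4 for MHC class I, 9 for the nuclear respiratory chain (3 lower), 8 for cytokine receptors and 4 for the MS4A family, and without the gated Ighm 7 of 11 immunoglobulin constant regions were lower in place of 3 of 10. With all ex vivo groups in 1 fit, 2 of the latter were lower and 9 transcription factors were higher. Folds that rest on values near the floor of 0.191 to 0.244 CPM, as for Map2 and E2f8, are imprecise at this depth.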

Other observations

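The families below were picked after their values were seen, and their counts are descriptions. The GIMAP genes, GTPases encoded side by side on chromosome 6, had 5 of 8 higher in follicular cells and none lower. Gimap1 had 52.2, 41.8 and 39.5 CPM in the transitional and 119.6, 91.1 and 94.5 CPM in the follicular libraries (log2 fold change 1.19, SE 0.14, adjusted p = 0.00041), whereas Gimap9 had 264, 242 and 242 CPM in the transitional and 238, 234 and 223 CPM in the follicular libraries and was not called (-0.11, adjusted p = 0.381). The count was 3 without follicular replicate 1, 3 without follicular replicate 2, 2 without transitional replicate 2 and 3 without transitional replicate 3. Of the 13 protein-coding mitochondrial genes, 7 were higher and none lower, and mt-Co1, a subunit of cytochrome c oxidase, had 2647, 2736 and 2837 CPM in the transitional and 4022, 3805 and 4157 CPM in the follicular libraries (log2 fold change 0.54, SE 0.06, adjusted p = 0.000257). Of the 70 nuclear genes of the respiratory chain tested, 3 were higher and 5 lower.

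Replication-dependent histone genes, whose products package newly made DNA, had 5 of 23 tested higher in follicular cells and 1 lower (median 0.55), with 18 values positive. Most of their transcripts lack the poly(A) tail by which the labels say RNA was selected, and similar copies can share reads. Hist1h1c, a linker histone, had 7.54, 7.24 and 7.72 CPM in the transitional and 16.1, 16.8 and 16.8 CPM in the follicular libraries (log2 fold change 1.14, SE 0.16, adjusted p = 0.00116). Hist3h2a, the most abundant in counts, was lower with 87.8, 77.3 and 93.1 CPM in the transitional and 52.8, 50.6 and 53.7 CPM in the follicular libraries (log2 fold change -0.72, SE 0.10, adjusted p = 0.000974). The higher count was 2 without follicular replicate 1, 3 without follicular replicate 2, 3 without follicular replicate 3, 2 without transitional replicate 2 and 2 without transitional replicate 3.

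Lysosomal cathepsins, proteases of endosomes, had 6 of 11 lower and 1 higher. The latter was Ctss, the most abundant of them in counts, with 1232, 1264 and 1134 CPM in the transitional and 1478, 1412 and 1407 CPM in the follicular libraries (log2 fold change 0.24, SE 0.07, adjusted p = 0.0296), a call that held without transitional replicate 1 and was lost without any other library (adjusted p = 0.0508 without transitional replicate 2 and larger without the others). Ctsb had 706, 853 and 565 CPM in the transitional and 183, 212 and 199.9 CPM in the follicular libraries (log2 fold change -1.84, SE 0.14, adjusted p = 4.98e-05) and Ctsz had 584, 549 and 563 CPM in the transitional and 355, 393 and 327 CPM in the follicular libraries (log2 fold change -0.66, SE 0.09, adjusted p = 0.000847). Among C-type lectins, 7 of 14 were lower, led by genes that myeloid cells express such as Clec4n with 26.4, 46.6 and 17.7 CPM in the transitional and 4.30, 2.23 and 3.17 CPM in the follicular libraries (log2 fold change -3.22, SE 0.37, adjusted p = 0.000377), and Clec2i was higher with 274, 253 and 199.7 CPM in the transitional and 388, 440.4 and 426 CPM in the follicular libraries (log2 fold change 0.79, SE 0.12, adjusted p = 0.00171). In the MS4A family Ms4a4c was higher with 339, 407 and 398 CPM in the transitional and 697, 719 and 730.0 CPM in the follicular libraries (log2 fold change 0.91, SE 0.09, adjusted p = 0.000147) while Ms4a1 was lower. The mitotic kinesins Kif4 (log2 fold change -5.26, SE 0.42, adjusted p = 6.27e-05) and Kif22 (log2 fold change -2.45, SE 0.20, adjusted p = 6.27e-05) were lower, in a family with 10 of 25 lower. Sema4d (log2 fold change -0.70, SE 0.12, adjusted p = 0.00357) and Sema4b (log2 fold change -0.58, SE 0.10, adjusted p = 0.00282), semaphorins of lymphocytes, were lower. The part of macrophage RNA in the decreases of cathepsins and lectins was not tested.

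Gm26699, a long noncoding RNA on chromosome 6 (chr6:38551531-38554007, minus strand, GRCm38), had 57.8, 58.9 and 54.5 CPM in the transitional and no count in the follicular WT libraries, at least 246-fold lower against 3 counts in a library. In Sh3gl1-/- mice it had 32.5, 72.9 and 60.3 CPM in transitional libraries and 0, 10.9 and 0 CPM in follicular ones. 5 other genes were called with no count in any follicular WT library, and 2 with none in any transitional one. Ctse, encoding cathepsin E, was low in replicate 2 of both cell states, with 270.0, 46.1 and 279.6 CPM in the transitional and 211, 41.0 and 248 CPM in the follicular libraries.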
